A study of Ovis aries with 6 samples.

Results

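FERMT2, ITGB1 and ITGAV are genes of the integrin adhesion system, by which skin cells hold on to the matrix around them. They were measured with 1-colour Agilent sheep arrays, 1 array per animal, in whole skin (epidermis and dermis) of the body side, in small tail Han sheep and in the Aohan fine wool breed. FERMT2 was taken at the single probe that the study's supplementary gene list names for it, and ITGB1 and ITGAV at every probe whose accession is a sheep RefSeq mRNA of these genes. This gave 3 genes of the 582 that carry a name on the array, and 4 probes of 15008, with 1 spot each. ITGB1 had 1 probe and ITGAV had 2.

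Each group held 3 sheep of 12 months, 1 ram and 2 ewes, reared normally in pens and without any treatment, and about 1 cm2 of skin was taken from each. Which of them was the ram is not in the labels. The sheep of a breed had a common sire, so the breed and the family of its sire cannot be told apart. The small tail Han arrays share a scan session and the Aohan arrays another, so that the session, too, cannot be told apart from the breed. A surface correction was recorded in the headers of all arrays except small tail Han replicates 2 and 3.

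Integrins are receptors made of an alpha and a beta chain. ITGB1 encodes the beta-1 chain, the partner of many alpha chains that bind collagen, laminin and fibronectin, and in skin it is known for holding basal keratinocytes to the basement membrane. ITGAV encodes the alpha-v chain, which pairs with beta-1 and other beta chains, binds vitronectin and fibronectin and can release active TGF-beta from its latent complex. FERMT2 encodes kindlin-2, a protein inside the cell that binds the tail of beta integrins together with talin, helps to switch them on and links them to actin. Kindlin-2 is found in fibroblasts, muscle and many other cell types of solid tissues.

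The probes were chosen with the difference between the breeds on these arrays already known, so that difference is given for them as a description and without a test. Signals are log2 processed intensities relative to the 75th percentile of the array, and changes are Aohan minus small tail Han with the standard error (SE) of the limma fit over 12481 probes. Levels of different probes cannot be compared with each other. All 4 probes were well above background on all 6 arrays, and none was saturated.

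The kindlin gene FERMT2 was lower in each Aohan sheep than in any small tail Han sheep, by 10.7-fold in the means. Its processed intensity at A_70_P008441 was 1017, 1140 and 1032 in small tail Han replicates 1, 2 and 3. It was 75.9, 74.2 and 60.2 in Aohan replicates 1, 2 and 3. The lowest small tail Han intensity thus lay far above the highest Aohan intensity even before any scaling between arrays. Relative to the 75th percentile, Aohan replicates 1, 2 and 3 had log2 signals of -3.86, -4.79 and -4.23, and the small tail Han values were -1.18, -0.69 and -0.76. The Aohan mean was -4.29 ± 0.47 (SD, n = 3) and that of small tail Han -0.88 ± 0.27 (SD, n = 3), which gives a change of -3.42 (SE 0.26). The nearest animals of the breeds were 2.68 apart, which was wider than the range within either breed. Of the 12481 probes tested, FERMT2 ranked 19 from the lowest change in Aohan sheep. In these bulk skin samples, fewer cells of a type and less RNA per cell cannot be told apart.

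The FERMT2 spots on the Aohan arrays were dim but well above background, and the size of the fold change rests on them. Their intensities did not rise with the 75th percentile of the array, which was 1103, 2048 and 1131 in Aohan replicates 1, 2 and 3. The median of the spot was 2.94 to 3.22 times its local background on the Aohan arrays, against 20.5 to 23.2 times for small tail Han. The extraction software put the error of the processed intensity at 10.8% to 13.6% on the Aohan arrays, against 10% on the small tail Han arrays. With normexp background correction of the raw spot medians the change was -2.44 (SE 0.23), or 5.43-fold, and without scaling between arrays it was -3.93 (SE 0.28), or 15.2-fold. FERMT2 rests on a single probe annotated with an expressed sequence tag, which no other probe on the array shares. The gene number that the supplementary list gives for it is FERMT2 in the sheep reference, and the probe sequence itself was not analysed here.

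The beta-1 integrin gene ITGB1 went the other way and was 3.30-fold higher in the mean of Aohan sheep. At A_70_P026041 the log2 signals were -3.20, -4.65 and -4.40 in small tail Han replicates 1, 2 and 3 and -2.71, -1.91 and -2.47 in Aohan replicates 1, 2 and 3. The breeds did not overlap, but small tail Han replicate 1 lay only 0.49 below the lowest Aohan sheep and 1.19 above the next small tail Han sheep. With means of -2.36 ± 0.41 (SD, n = 3) for Aohan and -4.08 ± 0.77 (SD, n = 3) for small tail Han, ITGB1 had a log2 change of 1.72 (SE 0.38). Without small tail Han replicate 1 the change was 2.16 (SE 0.27).

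Unlike those of FERMT2, the unscaled intensities of ITGB1 overlapped between the breeds. They were 169, 545 and 204 in Aohan replicates 1, 2 and 3, against 251, 73.1 and 82.9 for small tail Han. On this scale small tail Han replicate 1 was brighter than Aohan replicates 1 and 3. The 75th percentile by which each array was scaled was 2309 on small tail Han replicate 1 and 1103 and 1131 on Aohan replicates 1 and 3, and the breeds separated only after division by it. The change without scaling was 1.21 (SE 0.57), and with normexp it was 1.25 (SE 0.28). The spots of small tail Han replicates 2 and 3 were 3.06 and 2.53 times their local background, against 5.78 on replicate 1. These 2 arrays are the ones with no recorded surface correction, whose part in the result was not tested.

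The alpha-v integrin gene ITGAV differed little between the breeds, and its 2 probes gave nearly the same difference. At A_70_P026056 the log2 signals were -2.13, -2.08 and -2.10 in small tail Han replicates 1, 2 and 3 and -1.82, -1.84 and -1.67 in Aohan replicates 1, 2 and 3. At A_70_P026057 the Aohan signals were -2.25, -2.12 and -2.19, against -2.49, -2.53 and -2.73 for small tail Han. All Aohan values lay above all small tail Han values at both probes, with a gap of 0.24 at each. The log2 changes were 0.33 (SE 0.15) and 0.40 (SE 0.16), or 1.25-fold and 1.32-fold. A change of this size was common on the array, since the median size of change over all tested probes was 0.32.

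This small separation of ITGAV depended on scaling. The unscaled intensities at A_70_P026056 were 312, 573 and 355 for Aohan against 529, 434 and 407 for small tail Han, and those at A_70_P026057 were 232, 472 and 247 against 410, 318 and 263. The breeds overlapped at both probes on this scale, and the unscaled changes were -0.19 (SE 0.32) and -0.11 (SE 0.36). With quantile normalization, with median scaling and with the deposited series matrix values they were 0.25 to 0.36.

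**Figure D1:**
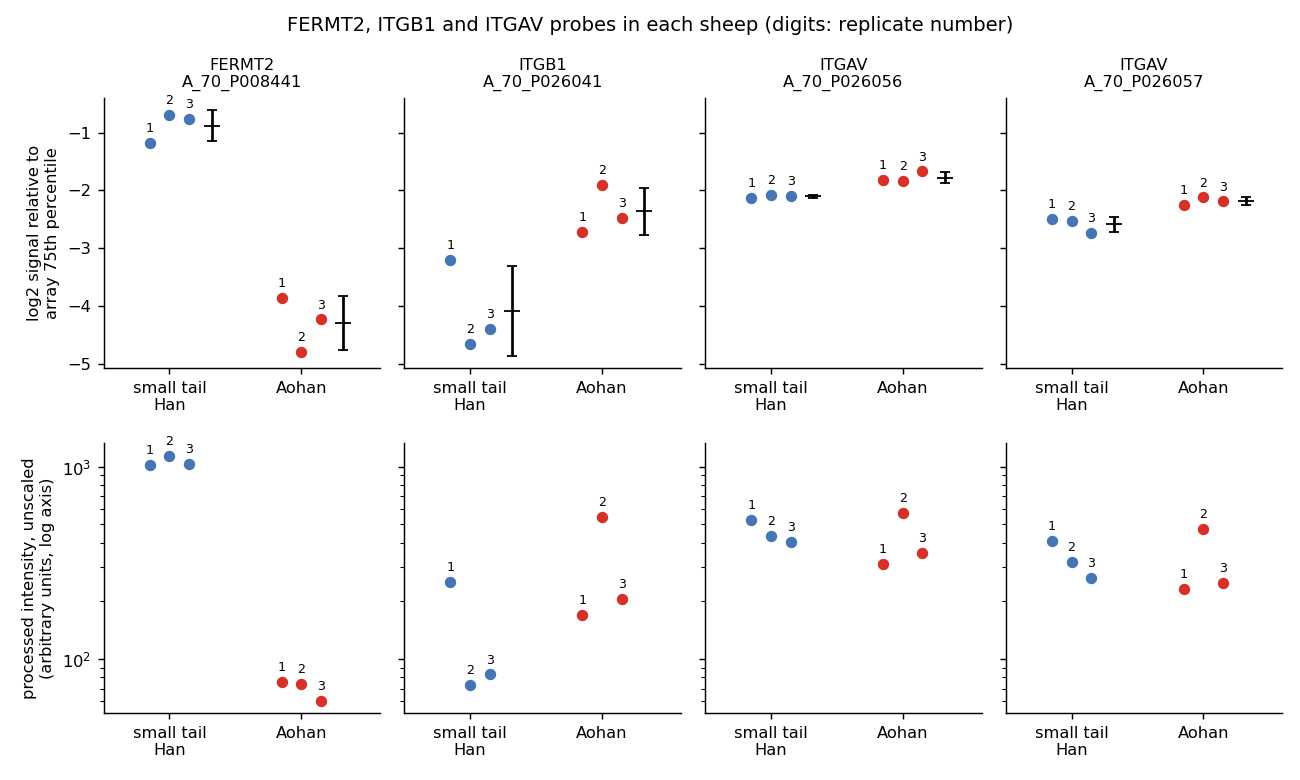
Signal of the FERMT2, ITGB1 and ITGAV probes in each sheep, as log2 signal relative to the array's 75th percentile (upper row; bars, mean and SD of 3 sheep) and as unscaled processed intensity on a log axis (lower row); digits are replicate numbers, and levels of different probes cannot be compared. The breeds are separate at all 4 probes in the upper row, and only at FERMT2 in the lower row.

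As a count, 2 of the 4 probes (FERMT2 and ITGB1) passed an adjusted p of 0.05 in limma, where 15.2% of all tested probes did. ITGB1 was the 1 called higher in Aohan sheep, where 7.57% of all were, and FERMT2 the 1 called lower, where 7.60% were. The breeds did not overlap at 4 of the 4, where 34.2% of all tested probes did not overlap. The choice of the probes used this difference, so nothing is read from these counts. On the unscaled intensities the breeds did not overlap at 1 of the 4, FERMT2.

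The spread among sheep of 1 breed differed widely between the probes. It is given as a description, since the supplementary list that named FERMT2 was screened on these arrays with a test that uses this spread. ITGAV was steady, with an SD of 0.02 in small tail Han sheep and 0.09 in Aohan sheep at A_70_P026056 and of 0.13 and 0.07 at A_70_P026057. At A_70_P026056, 0.969% of tested probes had a smaller SD in small tail Han sheep and 9.44% in Aohan sheep. At A_70_P026057 these shares were 21% and 4.91%, so the rank in small tail Han sheep differed between the probes of this gene. The median SD over all tested probes was 0.23 in small tail Han sheep and 0.27 in Aohan sheep. ITGB1 lay at the other end, with 96.5% of probes less variable than it in small tail Han sheep and 77% in Aohan sheep. FERMT2 was near the middle in small tail Han sheep, where 59.4% of probes had a smaller SD. Its scaled signal varied more in Aohan sheep, where 83.2% did. The unscaled Aohan intensities of FERMT2 were close to each other, at 75.9, 74.2 and 60.2 in replicates 1, 2 and 3. The 75th percentiles of these arrays were 1103, 2048 and 1131. The parts of the sheep, of the dim spots and of the scaling in the Aohan SD of FERMT2 were not tested.

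**Figure D2:**
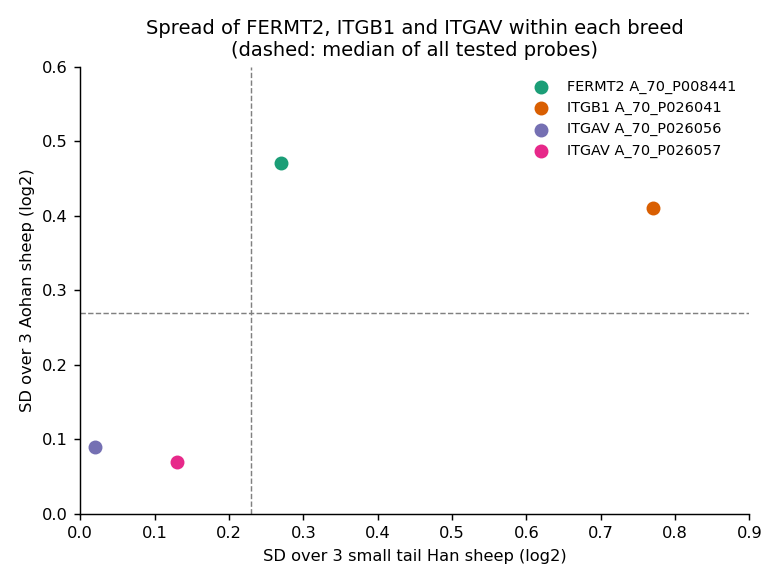
SD of the log2 signal over the 3 small tail Han sheep (horizontal) and the 3 Aohan sheep (vertical) for each of the 4 probes, with dashed lines at the median SD of all tested probes, 0.23 and 0.27. Both ITGAV probes lie below both medians, while FERMT2 and ITGB1 lie above both.

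Small tail Han replicate 1, which set the ITGB1 spread, stood apart at some list genes and not at others. Of the 4 genes tested for actin linkage and contraction, CFL1 encodes the actin-severing protein cofilin. At CFL1 small tail Han replicate 1 lay 1.00 above the higher of the other small tail Han sheep. At the tropomyosin gene TPM1 this difference was 0.67. At CNN1 and ACTB the same difference was -0.47 and -0.13. Of the adaptors, it was 1.05 at RHOA, a small GTPase of stress fibre assembly, and -0.32 at CAPN2. At ITGB2 it was -0.19. Over all 12410 probes with a value on every array, small tail Han replicate 1 exceeded both others of its breed by at least 1 on the log2 scale at 2.25%, small tail Han replicate 3 did so at 1.49% and replicate 2 at 0.15%. ITGB1 was thus one of 279 probes at which small tail Han replicate 1 did so. Small tail Han replicates 2 and 3 are the arrays with no recorded surface correction, whose part in this pattern was not tested.

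Among named genes, the signals most like FERMT2 over the 6 arrays were those of CYP1A1 (Pearson's r = 0.994), the fructose transporter SLC2A5 (r = 0.994) and the antigen-presenting molecule CD1D (r = 0.990), out of 608 probes searched. Their log2 changes were -3.99, -2.43 and -1.36. FERMT2 was chosen with its breed difference known, so a likeness that follows this difference adds nothing to it. ITGB1 was most like TPM1 (r = 0.998), the calmodulin gene CALM2 (r = 0.993) and TLR3 (r = 0.992), with changes of 0.92, 1.45 and 0.66. Of the ITGAV probes, A_70_P026056 was most like CYP17A1 (r = 0.981), TSHR (r = 0.975) and LOC443313 (r = 0.928), and A_70_P026057 was most like SERPINF1 (r = 0.966), CDK1 (r = 0.964) and CFL1 (r = 0.964). The 2 ITGAV probes were thus most like different genes. These values describe 6 arrays that share animals, scaling and breed, and carry no test.

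After the mean of each breed was subtracted, the genes most like ITGB1 were ICAM1 (r = 0.998), BCL2L1 (r = 0.998) and the adaptor NCK1 (r = 0.994), and those most like FERMT2 were CAST, an inhibitor of calpains (r = 0.996), CRYAA (r = 0.994) and BMPR1B (r = 0.991). The ITGAV probes were then most like PRND, HBB and GUCA2A (r = 0.922 to 0.966) and BAMBI, STAT5A and SLC25A38 (r = 0.897 to 0.946). With the breed means removed, few independent values remain of the 6 arrays, and the highest r was picked from 608 probes. Nothing is read from the height of these r values, which carry no test either. Between themselves the 2 ITGAV probes had r = 0.86 as measured and r = -0.11 after the breed means were subtracted. Their shared pattern over the 6 arrays was thus the step between the breeds. With quantile normalization, 2 of the 3 genes nearest to ITGB1 were the same in both forms, 1 of 3 for FERMT2 and for ITGAV A_70_P026057, and 0 of 3 for ITGAV A_70_P026056.

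The rest of the integrin adhesion system was covered thinly, by 19 genes with a RefSeq name out of 206 written in 6 lists, and 18 of these 19 could be tested. Of the 18, 5 were higher and 1 was lower in Aohan sheep at a Benjamini-Hochberg adjusted p under 0.05 over all probes, and 12 did not pass. Their median change was 0.25, against 0.02 over all tested probes, and 18.0% of probes with a RefSeq name passed in either direction. The share among these 18 genes was not tested against that of other genes.

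Of the other integrin subunits, ITGB2, the beta-2 chain of leukocyte integrins, was higher in Aohan sheep. Its log2 signals at A_70_P030172 were -1.44, -1.47 and -1.25 in small tail Han replicates 1, 2 and 3 and -0.65, -0.09 and -0.58 in Aohan replicates 1, 2 and 3. This is a change of 0.95 (SE 0.18, limma adjusted p = 0.0108), with 0.70 (SE 0.17, adjusted p = 0.0284) at its other probe. Without small tail Han replicate 2, ITGB2 missed the threshold (adjusted p = 0.0556). For its alpha partner ITGAM the change was 0.88 and missed it (SE 0.60, adjusted p = 0.377), and it was measured on 2 of 3 small tail Han arrays. That value rested on Aohan replicate 1, at -2.58 against -4.73 and -4.78 in Aohan replicates 2 and 3, and it was 0.15 (adjusted p = 0.846) without this array and 0.24 (adjusted p = 0.871) with normexp. For ITGAL, another partner, neither probe was well above background on any of the 6 arrays, and it was not tested. The alpha chains of laminin and collagen receptors, which pair with ITGB1, are not among the probes with a RefSeq name.

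No activator or adaptor of focal adhesions passed in limma, of 6 tested, while 2 of them had an unadjusted p under 0.05. RHOA had a change of 0.75 (SE 0.30, adjusted p = 0.128), with small tail Han replicate 1 at -0.70 among the Aohan values of -0.80, -0.32 and -0.84 and the other small tail Han sheep at -1.76 and -1.74. It passed when small tail Han replicate 1 was left out (adjusted p = 0.00891) and with normexp (adjusted p = 0.00670). CAPN2, a calpain that cleaves talin, had changes of -0.42 (adjusted p = 0.131) and -0.58 (adjusted p = 0.0722) at its 2 probes. The other genes, CAPN1, CAV1, RAC1 and CIB1, had changes from -0.30 to 0.43 at the probes that stood for them. Further probes of CAPN1 had changes of 0.35 and 0.46 and did not pass.

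Among integrin ligands, TGFB1 rose and 3 others did not pass. TGFB1, whose latent form is bound by alpha-v integrins, was at -1.04, -0.63 and -1.09 in Aohan sheep, against -1.53, -1.77 and -1.91 for small tail Han, a change of 0.82 (SE 0.18, adjusted p = 0.0192). It missed the threshold without small tail Han replicate 2 (adjusted p = 0.083) and without small tail Han replicate 3 (adjusted p = 0.0842). MADCAM1, a ligand of alpha-4 beta-7, had a change of -0.63 (SE 0.20, adjusted p = 0.0693) at A_70_P051067 and of 0.01 (adjusted p = 0.983) at its other probe, and the first of these passed with quantile normalization (adjusted p = 0.0454) and with the series matrix values (adjusted p = 0.044). Osteopontin (SPP1) had a change of -0.52 (adjusted p = 0.312) and was well above background on 1 of 3 Aohan arrays. ICAM1 had a change of -0.23 (adjusted p = 0.715). PLAUR, the urokinase receptor, which associates with integrins at the membrane, rose by 1.36 (SE 0.36, adjusted p = 0.0364). Its probe was well above background on 2 of 3 arrays of each breed, and the fit used the dim arrays too. It missed the threshold with normexp (adjusted p = 0.394) and in 4 of the 6 fits that left out an array. The kinase gene AKT1 had a change of 0.13 (adjusted p = 0.732).

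The genes tested from the list of actin linkage and contraction moved both ways. CFL1 was 2.16 higher in Aohan sheep (SE 0.31, adjusted p = 0.00291), at -0.34, 0.40 and -0.23 in Aohan sheep against -1.51, -2.51 and -2.62 for small tail Han, and its other probe gave 1.99. TPM1 rose by 0.92 (SE 0.22, adjusted p = 0.0254). CNN1, which encodes calponin of smooth muscle, had a change of -1.31 (SE 0.24, adjusted p = 0.00936), from 5.36, 5.65 and 5.83 to 4.59, 3.85 and 4.46. The probe with the accession of ACTB was well above background on 3 of 6 arrays and had a change of 0.09 (adjusted p = 0.911). TPM1 did not pass in 4 of the 6 fits that left out an array.

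**Figure D3:**
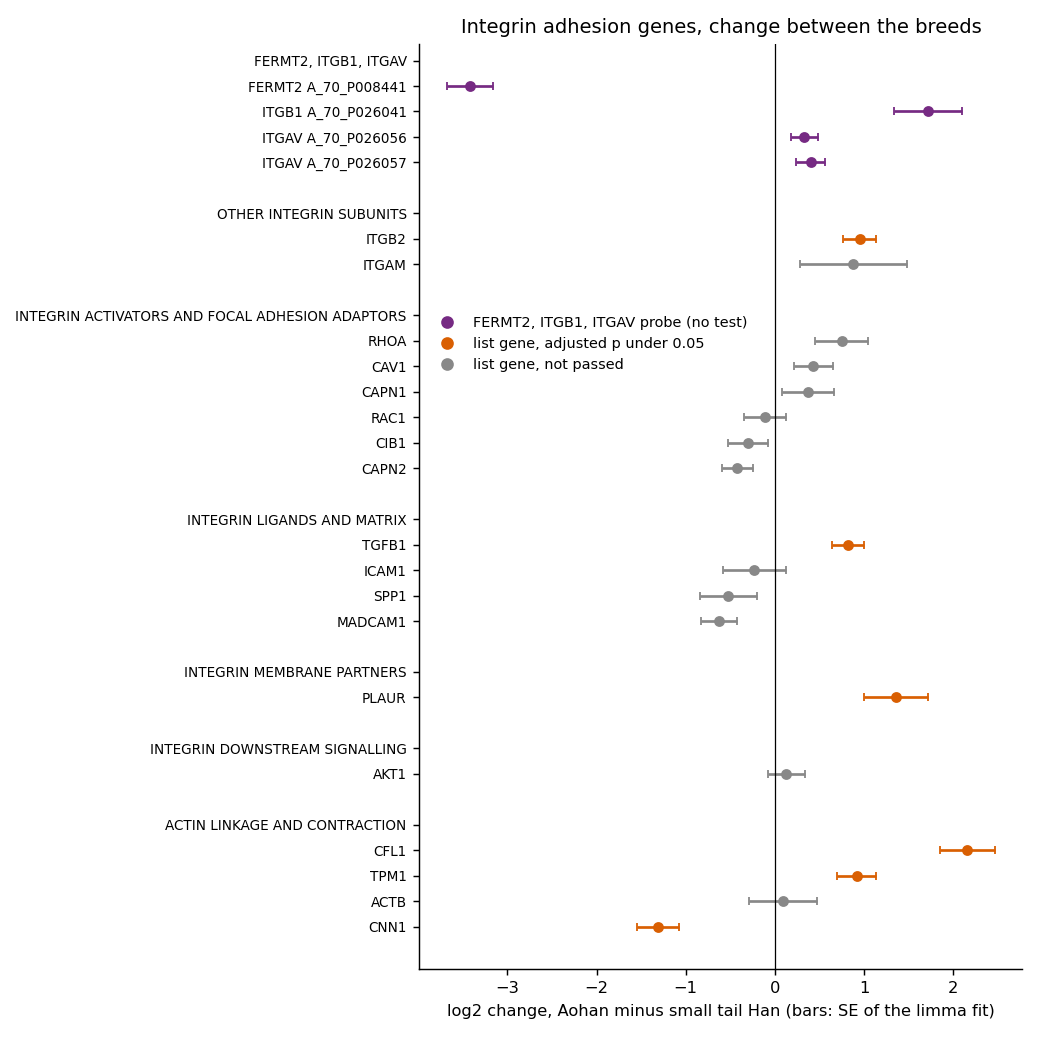
Log2 change between the breeds (Aohan minus small tail Han; bars, SE of the limma fit) for the 4 FERMT2, ITGB1 and ITGAV probes, without a test, and for the 18 other genes of the integrin lists that were tested. FERMT2 has the largest change drawn, at -3.42, while ITGB1 and 5 list genes that passed lie to the right of 0 and CNN1 to the left.

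Some further genes of these lists are named only in the study's supplementary list, which was chosen on the same arrays, so they stand outside the counts and are given without a test. CD9, a tetraspanin that associates with beta-1 integrins in the membrane, had log2 signals of -1.48, -1.61 and -1.65 in Aohan sheep at A_70_P003191, against 0.98, 1.06 and 0.99 for small tail Han. This is 6.02-fold lower, with 5.69-fold at its other probe, A_70_P003192. DES, which encodes desmin, the intermediate filament of muscle, was at 2.66, 1.91 and 2.80 in Aohan sheep against 4.44, 5.15 and 4.96 for small tail Han. PTPN12, WWTR1 and COL18A1 had changes of 0.39, 0.51 and 0.57.

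Some markers of cell types differed between the breeds, while most of those tested did not pass. Of the 8 leukocyte genes tested, 3 were higher in Aohan sheep, ITGB2, CD3D and CD3E, and none was lower, where 7.57% of all tested probes were higher. CD3E, a chain of the T cell receptor complex, had a change of 1.11 (adjusted p = 0.0135), and CD3D had one of 0.92 (adjusted p = 0.0362) that missed the threshold at its other probe (0.73, adjusted p = 0.088). The other 5 genes did not pass, and the probes of CD14 had changes of 0.19 and -0.31. CD4 and ITGAL were above background on too few arrays to be tested. The only smooth muscle marker with a RefSeq name, CNN1, was at 14.5 to 24.1 times the 75th percentile in Aohan sheep. In small tail Han sheep it was at 41.0 to 56.7 times. DES, also lower, is named only in the supplementary list and has no test here, so smooth muscle rests on 1 tested marker. Of the 4 dermal fibroblast genes tested, SERPINF1 was higher, at 1.26 (adjusted p = 0.0110), and DCN, BGN and MMP2 had changes of -0.08, 0.16 and -0.18 and did not pass. Of markers of the suprabasal epidermis, SFN was bright on all arrays with a change of 0.07 and did not pass, and SBSN, which is named only in the supplementary list and so has no test here, was at a mean of 5.05 in Aohan sheep against 6.11, a change of -1.06. The wool follicle markers KRT35 and V15 were bright on all arrays and did not pass. None of the tested markers of endothelium, melanocytes, adipocytes and sebocytes, or skeletal muscle passed. The part of these cell types in the differences of FERMT2, ITGB1 and ITGAV was not tested, and basal keratinocytes and platelets had no marker with a RefSeq name.

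**Figure D4:**
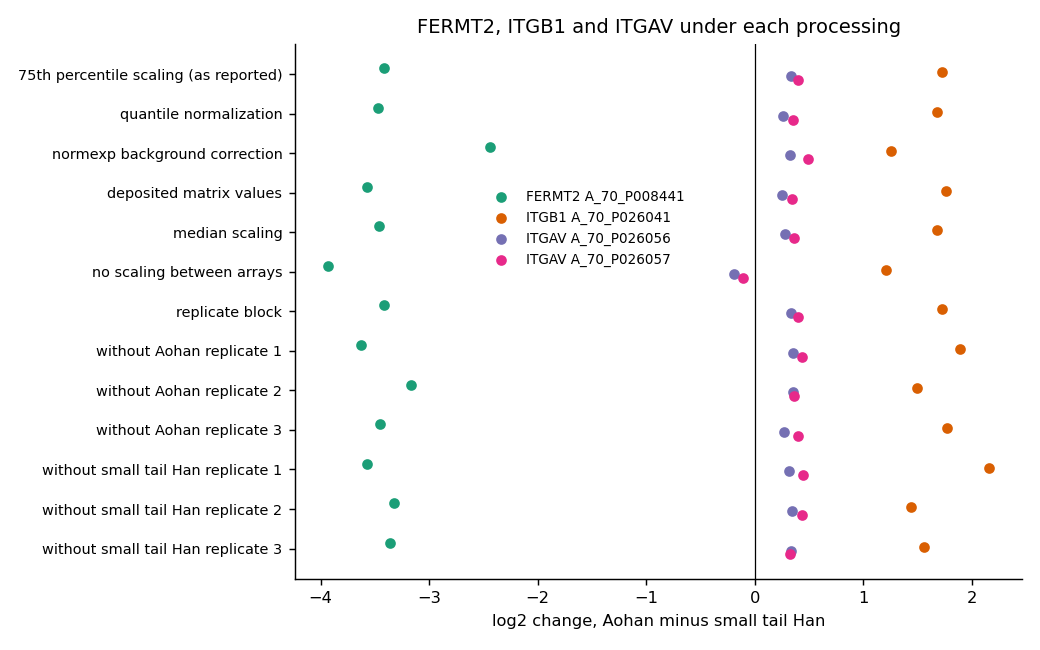
Change between the breeds on the log2 scale, positive where Aohan is higher, for the 4 probes under each processing of the arrays and with each array left out. FERMT2 lies between -3.93 and -2.44 and ITGB1 between 1.21 and 2.16 under all of them, and both ITGAV probes lie below 0 only without scaling between arrays.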

How the data were processed

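Skin RNA of 6 sheep was measured with 1 array each, and groups were taken from the sample titles. Per the file headers, the authors used version 10.5.1.1 of Agilent's Feature Extraction to turn the images into background-subtracted Cy3 intensities with no normalization between arrays, with 0 or 1 marks for spots well above background. The deposited series matrix is on a log2 scale. The study's methods name GeneSpring GX for this step, and its normalization is not given in the sources used here. Control spots and outlier spots were dropped here, log2 of the processed intensity was taken, spots of 1 probe were averaged and the array's 75th percentile over probes was subtracted. The well above background probes numbered 10774 to 13418 per array, and the number of arrays limits the precision. Probes had to be well above background on 3 or more of the 6 arrays, with 2 values per breed, and were fitted with limma 3.58.1 in R 4.3.3 (intensity trend, two-sided, Benjamini-Hochberg over 12481 probes), a step checked on simulated data. The p-values measure the spread between sheep that share a sire within each breed.

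Names came from RefSeq accessions in the sheep reference ARS-UI_Ramb_v3.0 for 734 of 758 probes that carry one. For a gene with several tested probes, the one with the highest mean signal stood for it. The genes named are all probes of FERMT2, ITGB1 and ITGAV, list genes that passed and the 2 of smallest p per list that did not, the 3 genes of highest Pearson's r per probe, and markers that passed or were brightest. Others named beside them were chosen after their values were seen. The genes and lists were chosen with earlier results of these data known. The fold changes, p-values and normalized values of the supplementary list were not used. Alternatives were quantile, median and no scaling, normexp (offset 50, on spot medians, since the files hold no spot means), the series matrix, other filters, no trend, the methods' t-test, a replicate block and leaving out each array. The normexp offset by itself makes the changes of dim probes smaller. Python 3.11.15 and matplotlib 3.10.9 drew the figures.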

Additional observations from a re-analysis of the deposited data

How the results depend on the processing

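The changes of FERMT2 and ITGB1 kept their direction under all alternatives run. FERMT2 (-3.42) moved by more than the pooled SD within the breeds with normexp (-2.44) and without scaling between arrays (-3.93). The choice without scaling was added after seeing the data. ITGAV A_70_P026056 (0.33) moved with the series matrix values (0.25) and without scaling (-0.19), and ITGAV A_70_P026057 (0.40) without scaling (-0.11). Leaving out each array gave -3.63 to -3.17 for FERMT2, 1.44 to 2.16 for ITGB1, 0.27 to 0.35 and 0.32 to 0.44 for the ITGAV probes. The number of list genes higher in Aohan sheep (5) was 1 to 6 when an array was left out. It was 3 without Aohan replicate 2 or 3, and 1 and 2 without small tail Han replicates 2 and 3. It was 0 with the methods' t-test after Benjamini-Hochberg adjustment. Before adjustment this t-test gave 8 of the 18 genes at p under 0.05. The study took its FDR from permutations and its values from GeneSpring, so its full procedure was not repeated here. The number lower (1) was 2 with quantile values and with the series matrix values, 0 with the methods' t-test and 1 in each fit without an array. Of all probes, 1893 passed, and 712 did with the methods' t-test and 789 to 2248 when an array was left out (1063 without Aohan replicate 3, and 789 and 944 without small tail Han replicates 2 and 3). Of the 13 list genes named above, AKT1 changed sign with normexp (-0.12) and without Aohan replicate 2 (-0.02, in a range of -0.02 to 0.23 when an array was left out). ACTB did so with normexp (-0.20), when Aohan replicate 1 (-0.12) or small tail Han replicate 2 (-0.13) was left out, in a range of -0.13 to 0.32, and neither passed in any fit. The cause of these shifts was not tested. The same replicate numbers in both breeds belong to different sheep, and the labels give no pairing between them. Deviations from the breed means correlated at -0.224, -0.369 and 0.278 for replicates 1, 2 and 3. With so few arrays per breed, these values cannot decide whether a pairing exists. With the replicate block, 1234 probes passed, 5 list genes were higher and 1 lower, and the changes of FERMT2, ITGB1 and ITGAV were -3.42, 1.72, 0.33 and 0.40. Signal over background limits FERMT2 in Aohan sheep and ITGB1 in small tail Han sheep, where spots were 2.53 to 5.78 times their local background.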
